A study of Sus scrofa with 63 samples.

Results

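The breed of the sire was compared among fetuses carried by Meishan (MS) sows at day 110 of gestation. MS is a prolific Chinese pig breed with good piglet survival, and Large White (LW) is a European breed selected for growth and leanness. The 9 LWMS fetuses had an LW sire and an MS sow, and the 7 MSMS fetuses had an MS sire and an MS sow, so that these 16 of 63 fetuses of the series were chosen by the cross and age in their titles. All were males delivered by caesarean, all were carried by MS sows, and a middle piece of jejunum was taken from each. Sows had been inseminated with mixed semen, so that purebred and crossbred fetuses could share a litter, but neither the sow nor the boar of a fetus is known here. In both groups the X chromosome came from the MS dam, whereas the Y chromosome and the paternal copy of each autosome came from LW in the one and from MS in the other. The other 47 fetuses belonged to 6 groups: the same cross types in MS sows at day 90 (9 LWMS and 6 MSMS), and fetuses of LW sows with an LW sire (LWLW, 9 at each age) or an MS sire (MSLW, 8 at day 90 and 6 at day 110).

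Late in gestation the jejunal epithelium prepares for milk feeding: villi carry enterocytes with brush border hydrolases, transporters for sugars, amino acids and lipids, and enzymes that oxidise foreign compounds, such as cytochromes P450 of the CYP2C and CYP3A families. A father can affect the level of a gene in his offspring through the sequence of the allele he passes on, through genes on the Y chromosome in sons, and through imprinted genes, of which only the copy of one parent is expressed.

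Levels are log2 background-corrected intensities from which the 75th percentile of the same array was subtracted, so that 0 is the level of a fairly bright probe and a step of 1 is a doubling. A gene is given by its brightest probe, levels of different genes are not compared, and every difference is LWMS minus MSMS unless stated otherwise. Probes were called at an adjusted p under 0.05 in limma with the Benjamini-Hochberg correction over 40515 probes. Between 59.7% and 72.1% of the probes were well above background on the 16 arrays. The largest component of variance (40.1%) followed the number in the title of a fetus rather than its sire: the 7 fetuses numbered in the 600s lay at 11.3 to 178, the 6 in the 400s at -87.1 to -48.8 and the 3 in the 800s at -37.6 to -12.3, and each series held both groups. What the numbers stand for is not stated in the labels. MSMS fetus 632 stood apart from all others on this component and on the next one (123). Among the 16 fetuses, 12312 probes (30.4%) differed between the series of numbers, so that values within each series, or with it as a block, are given beside several results. Both groups were present on 5 of the 8 slides.

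**Figure D1:**
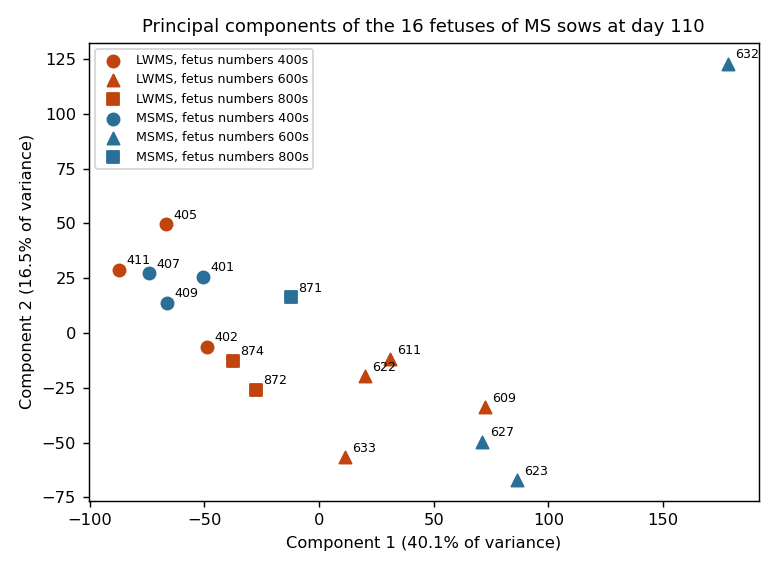
Principal components 1 and 2 of 37740 probes in the 16 fetuses of MS sows at day 110, with orange for LWMS, blue for MSMS and the symbol for the series of the fetus number. The 600s lie to the right of every other fetus, and fetus 632 lies at the upper right, far from the rest.

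Among called probes, more were higher than lower in the jejunum of LWMS fetuses, whereas 43.6% of all probes were higher. Of the 40515 probes, 443 were called (1.09%), 347 higher in LWMS (0.856%) and 96 lower (0.237%). An unadjusted p under 0.05 in limma was seen for 3653 probes, 1905 higher and 1748 lower. The higher probes had a median difference of 1.22 and the lower ones of -0.88, beside -0.03 over all probes. Median centring of the arrays, which shifted the median of all probes to 0.05, left 292 higher and 31 lower. The number of calls was 342 without fetus 632, 313 without MSMS fetus 627 and 546 without LWMS fetus 609. A fit of the 16 fetuses with the series of numbers as a block called 616 probes (1.52%), of which 309 were among the 443. Differences of at least 3 were seen for 39 called probes, of which 38 were higher in LWMS. All 9 LWMS levels lay above all 7 MSMS levels for 105 of 40400 probes with all values (0.26%), and below them for 43 (0.106%). Of these, 95 and 12 were called, and called probes were chosen for their difference in these same fetuses.

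The same contrast of sires was measured in 2 sets of other fetuses, which share the estimate of variance but no animal with this comparison. In MS sows at day 90, where 292 probes were called (0.721%; 0.652% higher and 0.0691% lower), 420 of the 443 probes (94.8%) differed in the same direction, 155 of them were called in that direction and 0 in the opposite one. The median difference of the higher probes was 0.89 there, and that of the lower probes was -0.46. In LW sows at day 110 (LWLW minus MSLW, 536 called or 1.32%, with 0.708% higher and 0.615% lower), 363 probes (81.9%) had the same direction, 67 were called in it and 0 against it, and the medians were 0.49 and -0.39. Whatever its sign, the difference was smaller in size than in MS sows at day 110 for 339 of the 443 probes at day 90 and for 410 in LW sows. These probes had been chosen for their difference in MS sows at day 110. No probe was called for an interaction of sire and age in MS sows (0 of 40515 in limma, with 977 at an unadjusted p under 0.05), whereas 80 probes (0.197%) were called for an interaction of sire and sow breed at day 110, 62 of them with a higher difference in MS sows (0.153%) and 18 with a lower one (0.0444%). At day 90, MSMS was the lowest of the 4 crosses for 308 of the 347 higher probes and the highest for 73 of the 96 lower ones. The same counts were not made over all probes, so they do not show what is particular to the called ones.

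**Figure D2:**
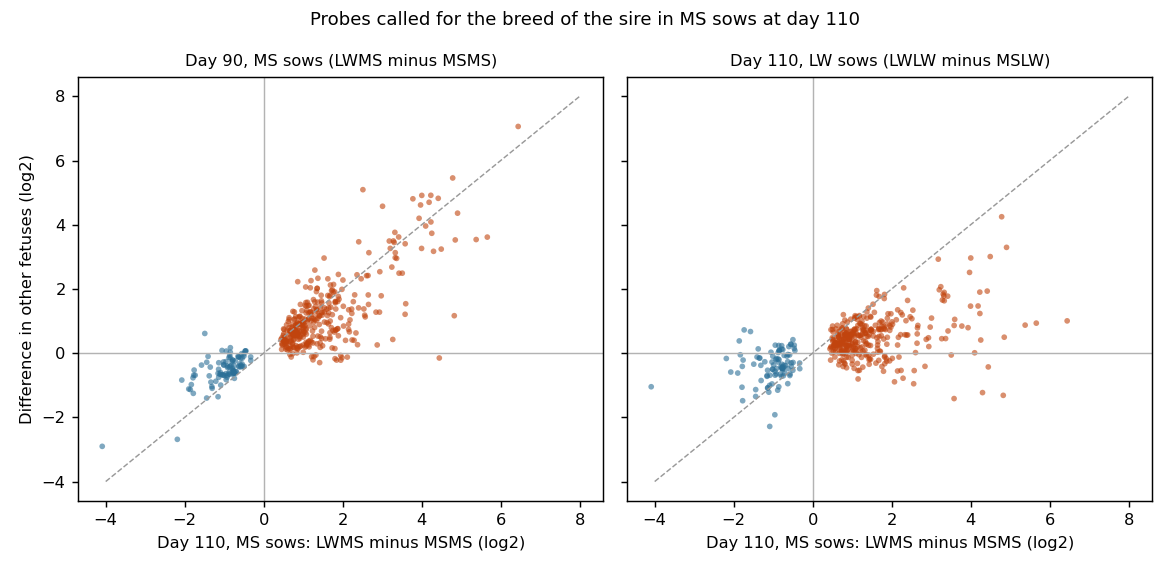
Differences of the 443 called probes in MS sows at day 110 (horizontal axes, log2) against the sire difference in other fetuses (vertical axes, log2), in MS sows at day 90 on the left and in LW sows at day 110 on the right. Orange probes were higher and blue probes lower in LWMS. The dashed line marks equal differences. Whatever its sign, the difference in other fetuses was smaller in size for 339 of the 443 probes at day 90 and for 410 in LW sows. It had the same sign for 420 and 363.

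Calls rested on single probes in many genes. Of 11014 genes, 130 were called by their brightest probe (1.18%), 103 higher and 27 lower, and 101 more had a called probe that was not the brightest. Of 292 called probes with a gene symbol, 215 belonged to genes with another tested probe of a different sequence. For 83 of these another probe was called in the same direction, for 132 none was, and for 2 another probe was called in the opposite direction. The median size of the called differences was 1.05, and the median of the other probes of the same genes was 0.42 in the called direction. A probe can read a base difference between breeds under its own sequence as a difference in level, and the part of such differences was not tested.

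The probes behind the genes described first are shown to let the agreement of separate stretches of a transcript be seen. The MTFP1 line is the start of a probe that is present under 2 names. The 3 AQP10 probes share runs of at most 6 bases, and the CYP2C49 and CYP2C34 probes also share at most 6. Probes were compared only with each other. Whether a probe of one of these 2 related genes also matches the transcript of the other was not tested.
MTFP1, first 30 bases: agttgaacggaaactgagagataatgacct
AQP10, brightest probe: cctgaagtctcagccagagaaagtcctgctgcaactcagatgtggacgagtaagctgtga
AQP10, another probe: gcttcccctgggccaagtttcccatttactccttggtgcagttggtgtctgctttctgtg
AQP10, another probe: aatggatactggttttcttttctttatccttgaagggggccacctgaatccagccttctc
CYP2C49, brightest probe: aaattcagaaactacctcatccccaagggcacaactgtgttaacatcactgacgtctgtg
CYP2C34: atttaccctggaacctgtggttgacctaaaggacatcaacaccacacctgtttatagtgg

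MTFP1, which encodes a protein of the inner mitochondrial membrane with a role in mitochondrial fission, had the largest difference of a named gene. Its level was -0.16 at the lowest, 0.98 at the median and 1.74 at the highest in LWMS, and -4.98, -4.52 and -3.89 in MSMS, where 4 of 7 arrays were well above background. The groups did not overlap, and the difference was 5.38 ± 0.25 (SE, n = 9 and 7, limma adjusted p = 3.23e-25), or 41.7-fold. In fetuses of LW sows both crosses were near LWMS, with MSLW at 0.24 ± 0.26 (SD, n = 6) and LWLW at 1.11 ± 0.47 (SD, n = 9). MSMS was thus the one cross of the 4 with a low level, and the interaction of sire and sow breed was 4.51 (limma adjusted p = 1.37e-13). The day 90 difference was 3.54 (limma adjusted p = 1.56e-15).

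METTL7B, a methyltransferase of the endoplasmic reticulum and lipid droplets, had the same arrangement of crosses. The lowest, median and highest levels were 0.13, 0.96 and 1.43 in LWMS and -6.55, -2.93 and -1.34 in MSMS, with no overlap. The difference was 4.10 ± 0.45 (SE, limma adjusted p = 2.24e-09) and was positive on all 5 slides with both groups. It was 3.96 at day 90 and 0.01 in LW sows, and the interaction with the breed of the sow was 4.09 (limma adjusted p = 0.000211). CD38, an enzyme that consumes NAD, was higher by 2.64 ± 0.36 (SE, limma adjusted p = 7.70e-07), with an interaction of 2.33 (limma adjusted p = 0.0245). The levels of CD38 were -1.93 ± 0.37 in LWMS, -4.57 ± 1.27 in MSMS, -1.68 ± 0.23 in MSLW and -1.37 ± 0.39 in LWLW (SD, n = 9, 7, 6 and 9). In MSMS, METTL7B was well above background on 6 of 7 arrays and CD38 on 5, so that these sizes rest partly on signals near background. For MTFP1, METTL7B and CD38, MSMS was lower than each of the other 3 crosses at day 110.

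AQP10, a channel for water and glycerol of the small intestine, varied widely among MSMS fetuses and, in LW sows, among LWLW fetuses. It ranged from 2.47 to 5.41 with a median of 4.96 in LWMS, and from -5.53 to 4.20 with a median of 0.17 in MSMS. The groups overlapped, since 5 of 7 MSMS fetuses lay below the lowest LWMS fetus and the other 2 did not. The difference was 4.83 ± 0.78 (SE, limma adjusted p = 6.58e-05), all 3 probes were called (3.58 to 4.83), and without fetus 632 the brightest gave 4.17. AQP10 was not called in a fit of the 2 groups alone (adjusted p = 0.0732). The day 90 difference in MS sows was 1.17. In LW sows at day 110 the difference was -1.31, with LWLW fetuses from -0.45 to 5.39, and the interaction was 6.14 (limma adjusted p = 0.00312). Within the series of fetus numbers the AQP10 difference was 3.81 in the 400s, 6.72 in the 600s and 2.19 in the 800s.

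Cytochromes P450 of subfamily 2C, which oxidise drugs, steroids and fatty acids, were higher in LWMS. CYP2C42 was at 0.71, 2.36 and 3.15 (lowest, median and highest) in LWMS and at -6.62, -1.48 and -0.25 in MSMS, without overlap, a difference of 4.19 ± 0.71 (SE, limma adjusted p = 0.000159). It was well above background on 6 of the 7 MSMS arrays. The difference was 3.42 ± 0.67 for CYP2C49, whose 3 probes were all called (3.25 to 3.42), and 3.33 ± 0.69 for CYP2C34 (SE, limma adjusted p = 0.00162 and 0.00306). In RefSeq these 3 genes are neighbours on chromosome 14, with CYP2C42 and CYP2C49 2 genes apart and CYP2C49 and CYP2C34 3 genes apart. At day 90 the differences were 4.70, 3.62 and 3.13, each called, and in LW sows 1.47, 1.78 and 1.63, none called. LWMS fetus 405 was the lowest of its group for all 3. With the series of numbers as a block CYP2C42 was called (adjusted p = 0.00847), and CYP2C49 and CYP2C34 were not (adjusted p = 0.0701 and 0.0629). CYP2J34, of another P450 subfamily, was higher by 2.24 ± 0.47 and CYP3A46 by 1.79 ± 0.46 (SE, limma adjusted p = 0.00405 and 0.0319). In a fit of the 2 groups alone CYP2C49, CYP2C34 and CYP2J34 were not called. CYP3A46 was not called without fetus 632 (1.14, adjusted p = 0.232), with the series as a block (adjusted p = 0.217), with no filter, with array weights or in a fit of the 2 groups alone. Its difference was 0.76 in the 400s, 3.05 in the 600s and 0.75 in the 800s.

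The other genes among the 15 with the largest positive difference were C7ORF31 (4.00), C1ORF186 (3.43), ASB4 (3.27), CLASP1 (2.34), AIRE (2.30), SLC6A3 (2.02) and MMRN2 (1.98). Several of these were dim in MSMS, where C7ORF31 was well above background on 2 of 7 arrays, ASB4 and SLC6A3 on 3, C1ORF186 and CLASP1 on 4, and AIRE on 6, so that the sizes of their differences rest partly on signals near background. All 15, which were chosen for their difference in these fetuses, had a positive difference within each of the 3 series of fetus numbers, and 7 had groups that did not overlap. In other fetuses, 15 of 15 were positive at day 90 with 9 called, and 13 of 15 were positive in LW sows with 1 called. That one was MMRN2, a matrix protein of the vessel wall, which was higher by 1.23 there, by 1.98 ± 0.25 in MS sows at day 110 and by 1.99 at day 90. Its 5 probes all had a positive difference and 4 were called. CLASP1, which binds the growing ends of microtubules, was called by one probe, and its other probe differed by -0.15. CLASP1 was not called without MSMS fetuses 627 or 623, with normexp background correction, with array weights, in a fit of the 2 groups alone or with the series as a block (adjusted p = 0.0738). SLC6A3, the dopamine transporter, was not called with array weights or in a fit of the 2 groups alone. ASB4, a substrate adaptor of a ubiquitin ligase, and AIRE, a regulator of antigen display in the thymus, also missed the threshold with the series as a block (adjusted p = 0.0557 and 0.0538). Neither was called in a fit of the 2 groups alone, and AIRE was not called without fetus 627.

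Some probes were well above background on all 9 LWMS arrays and on 0 of the 7 MSMS arrays. There were 9 of these (0.0222%), all of them called, and 0 with the opposite pattern. The largest had no gene name, and its signal was at least 28.5-fold higher in LWMS. This bound takes, for each MSMS array, the dimmest signal that still counted as well above background, or the signal of the probe itself where that was higher. One probe each of KDM4C, a histone demethylase, MMRN2, NUBPL, an assembly factor of complex I, ALPK1, a kinase of innate immunity, and RNLS, a flavin-dependent oxidase, was among them. Their bounds were at least 4.70-fold for KDM4C, 4.72-fold for MMRN2, 4.66-fold for NUBPL, 2.98-fold for ALPK1 and 1.92-fold for RNLS. None of these 5 was the brightest probe of its gene, and they were named after their values were seen. A total of 44 probes were called in MS sows at both ages and in LW sows at day 110, 44 of them higher and 0 lower with the LW sire, among them these probes of KDM4C, NUBPL and ALPK1.

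Genes with lower levels in LWMS had smaller differences. The 15 lowest by brightest probe lay between -1.79 and -0.79, and 4 had groups that did not overlap. All 15, which were chosen for their difference in these fetuses, were negative within each series of fetus numbers. In other fetuses, 15 of 15 were negative at day 90 with 2 called, and 13 of 15 were negative in LW sows with 3 called. SIN3A, the scaffold of a histone deacetylase complex, had a lowest, median and highest level of -4.21, -3.62 and -3.30 in LWMS and of -3.11, -2.55 and -1.56 in MSMS. These ranges did not overlap, and the difference was -1.15 ± 0.20 (SE, limma adjusted p = 0.000203). SALL3, a zinc finger transcription factor, differed by -0.96 ± 0.26 in MS sows (limma adjusted p = 0.0437) and by -1.92 in LW sows (limma adjusted p = 1.41e-05). Its groups did not overlap, at -0.21 to 0.56 in LWMS and 0.66 to 2.10 in MSMS, but the call in MS sows was kept in 3 of 16 fits that each left out 1 fetus, and without fetus 632 the difference was -0.78 (adjusted p = 0.203).

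ALG8, which adds glucose to the precursor of N-glycans, differed by -1.30 ± 0.34 (SE, limma adjusted p = 0.0329). APOD, a lipid-binding lipocalin, differed by -1.09 ± 0.28 (SE, limma adjusted p = 0.0302), and 5 of its 6 probes, 2 of which have the same sequence, were called. The mast cell tryptase TPSD1 differed by -1.41 ± 0.32 (SE, limma adjusted p = 0.0115), from -3.69 to -1.68 in LWMS and from -2.40 to -0.26 in MSMS. The other tested genes of the mast cell marker list were not called: KIT was at 0.40, MS4A2 at -0.42 and HDC at -0.97 (differences). That list does not cover every mast cell gene and did not hold MCT7, which was called and is given next. The remaining genes of the 15 were MCT7 (-1.79), SLC19A3, a thiamine transporter (-1.31), MLYCD, malonyl-CoA decarboxylase (-1.16), FNDC9 (-1.03), PTI (-0.88), KCNG1 (-0.87), PGBD1 (-0.85), PARP11 (-0.79), and EIF2S3 and MAGEL2. Leaving out 1 fetus at a time, the call was kept in 6 of 16 fits for ALG8, 11 for APOD, 14 for TPSD1, 10 for MCT7, 15 for SLC19A3, 5 for MLYCD, 15 for PTI and 7 for KCNG1, and in 16 of 16 for FNDC9, PGBD1 and PARP11. In a fit of the 2 groups alone FNDC9, PGBD1 and PARP11 were not called, and PGBD1 and PARP11 were also lost with quantile normalization and median centring (adjusted p up to 0.162 and 0.119). KCNG1 was called under 6 of 13 alternatives. Without fetus 632 the adjusted p was 0.0593 for ALG8, 0.105 for MCT7, 0.104 for SLC19A3, 0.147 for MLYCD, 0.0755 for PTI and 0.146 for KCNG1. TPSD1 was not called without MSMS fetuses 623 or 627, and APOD was not called without LWMS fetuses 402, 405 or 411 or MSMS fetuses 623 or 627.

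EIF2S3 and MAGEL2 had lower mean levels with the LW sire in both sow breeds and at both ages, although not every difference was called and the sires were not tested in LW sows at day 90. EIF2S3 encodes the gamma subunit of the translation initiation factor eIF2, is X-linked and has a Y-linked copy in many mammals. MAGEL2 lies in the imprinted Prader-Willi region and is expressed from the paternal copy in human and mouse. The single probe of each is shown because both calls rest on it.
EIF2S3, first 30 bases: gccaacagtagatgatgactgaagattatc
MAGEL2: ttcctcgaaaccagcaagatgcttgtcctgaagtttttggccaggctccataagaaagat

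The level of EIF2S3 was 2.02, 2.38 and 2.68 (lowest, median and highest) in LWMS and 3.04, 3.38 and 3.64 in MSMS. No LWMS fetus reached the lowest MSMS fetus, and the difference was -0.95 ± 0.20 (SE, limma adjusted p = 0.00540). It was close in each series of numbers, at -0.93, -0.95 and -0.90 in the 400s, 600s and 800s. Day 110 fetuses of LW sows were at 2.50 ± 0.36 with the LW sire and 3.19 ± 0.68 with the MS sire (SD, n = 9 and 6), a difference of -0.69 (limma adjusted p = 0.0903). The day 90 difference in MS sows was -0.83 (limma adjusted p = 0.0438), and the day 90 means of EIF2S3 were 3.69 in MSMS and 3.40 in MSLW against 2.86 in LWMS and 2.97 in LWLW. EIF2S3 was kept under every alternative but median centring (adjusted p = 0.0724). It was the one called gene of 354 on the X chromosome (0.282%), against 116 of 9545 on the autosomes (1.22%). Of 4 Y-linked genes tested none was called (ZFY 0.51, DDX3Y 0.45 and EIF1AY 0.05, each a difference), with ZFY, a zinc finger transcription factor, at an adjusted p of 0.156 in limma. The probe of ZFY differed by 0.62 at day 90 and by 0.35 in LW sows.

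MAGEL2 was at -5.19, -4.14 and -3.59 in LWMS and at -4.06, -2.86 and -1.27 in MSMS, so that the groups overlapped. The difference was -1.44 ± 0.36 (SE, limma adjusted p = 0.0223), beside -1.40 at day 90 (limma adjusted p = 0.0548) and -1.35 in LW sows (limma adjusted p = 0.0485). The day 90 means of MAGEL2 were -2.22 in MSMS and -1.98 in MSLW against -3.61 in LWMS and -3.55 in LWLW. In LW sows at day 110 the level was -2.91 ± 0.58 with the MS sire and -4.26 ± 0.71 with the LW sire (SD, n = 6 and 9). The call was lost with quantile normalization, median centring, array weights and in a fit of the 2 groups alone. It was also lost without LWMS fetuses 405 or 411, MSMS fetuses 623 or 627, or MSMS fetus 632 (-1.18, adjusted p = 0.121). Of 14 paternally expressed imprinted genes, 1 was called, MAGEL2, beside 1.18% of all genes, and the median difference of the list was -0.24. NDN, its neighbour in the imprinted region, differed by -0.40, SNRPN by -0.07, PEG3 by -0.29 and IGF2, the fetal growth factor, by 0.62, none of them called. Of 10 maternally expressed genes 1 was called, ASB4, with a median of 0.03 for the list, and the ASB4 difference of 3.27 was 0.43 at day 90 and 0.45 in LW sows.

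**Figure D3:**
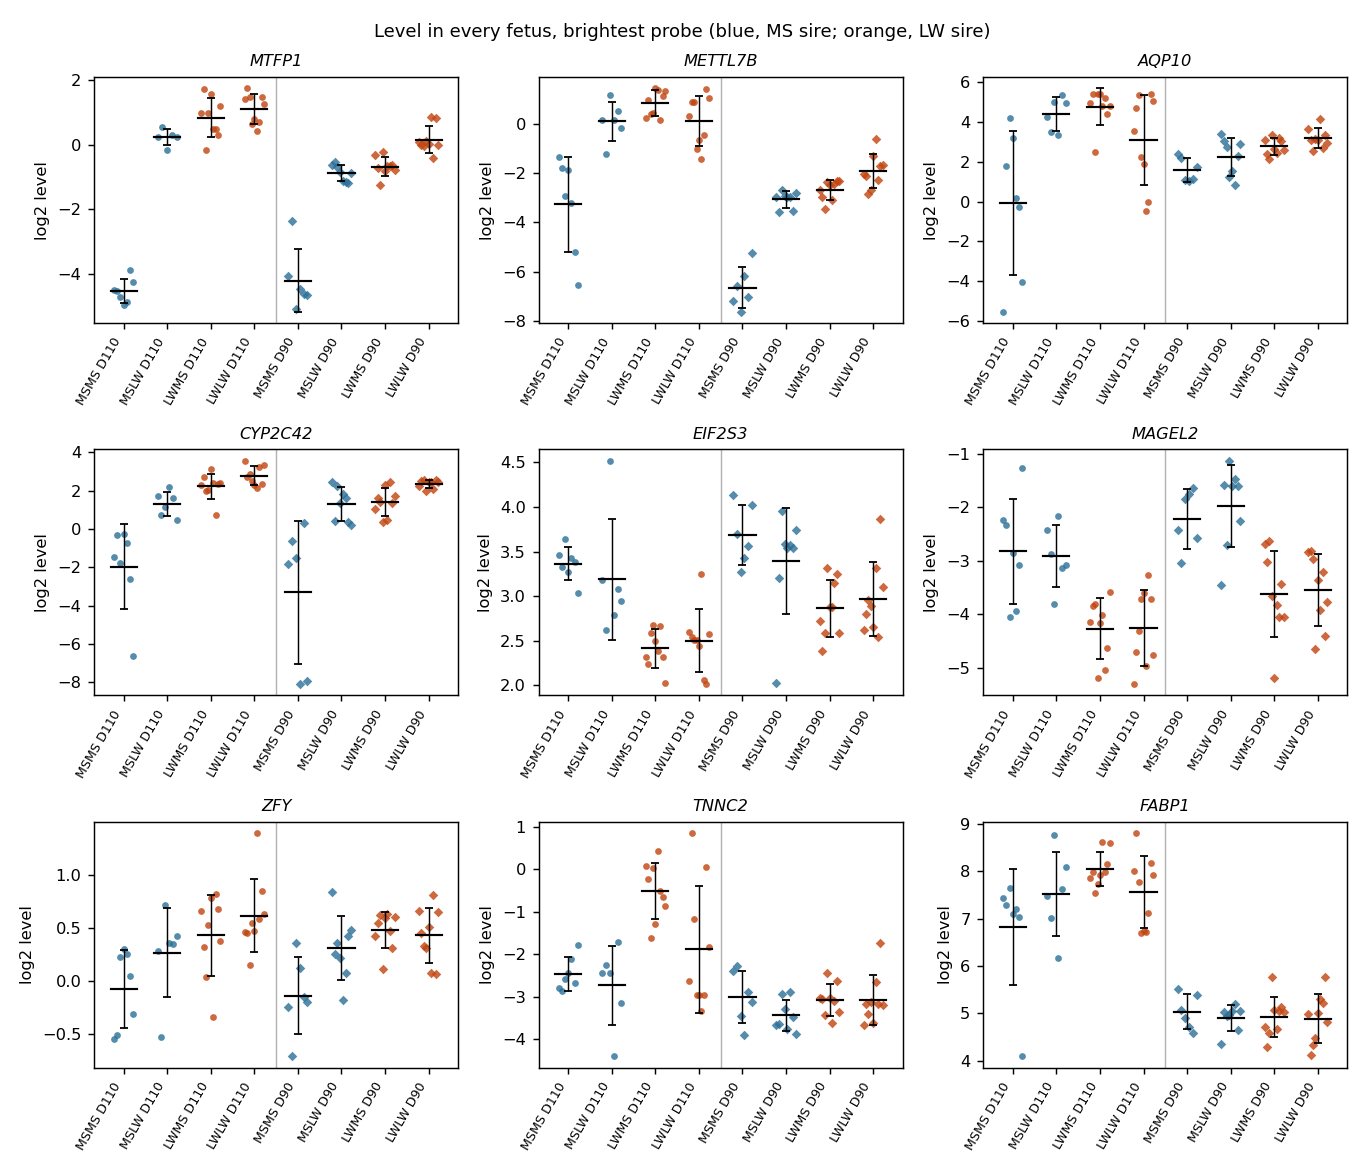
Level of the brightest probe (log2, with each array scaled to its 75th percentile) of 9 genes in every fetus, by cross and age, with blue for an MS sire and orange for an LW sire. Bars give mean ± SD, circles are day 110 and diamonds day 90. MTFP1 and METTL7B are low in MSMS at both ages, The means of EIF2S3 and MAGEL2 are lower with the LW sire in each sow breed and age, single fetuses overlap between sires except for EIF2S3 in MS sows at day 110, and all LWMS fetuses at day 110 lie above all MSMS fetuses for TNNC2.

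TNNC2, the calcium-binding troponin subunit of fast skeletal muscle, was higher in LWMS at day 110. Levels were -1.62, -0.52 and 0.43 in LWMS and -2.86, -2.60 and -1.78 in MSMS, with no overlap. The difference was 1.95 ± 0.39 (SE, limma adjusted p = 0.00167) and it was -0.07 in MS sows at day 90, although the interaction of sire and age was not called (difference of differences 2.03). In LW sows, LWLW fetuses spread from -3.33 to 0.86, below the lowest MSMS and above the highest LWMS fetus, and the sire difference was 0.85 and not called. Of 7 probes, 6 were called (1.81 to 2.12) and the one at -0.18 was not. That probe reads the strand opposite to a called probe, with which it overlaps in part. In the pair below, the capitals mark 16 bases that are reverse complements of each other.
TNNC2, called: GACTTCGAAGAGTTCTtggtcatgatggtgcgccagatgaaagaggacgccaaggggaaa
TNNC2, not called: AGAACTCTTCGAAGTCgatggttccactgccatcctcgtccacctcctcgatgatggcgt
The other skeletal muscle markers were not called: ACTA1 differed by -0.38, CKM by 0.13, MYLPF by -0.09, MYH3 by 1.02 and TNNT3 by -0.81.

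Few genes of enterocyte function were called, and the differences of most were positive, as were those of the markers of enterocytes. In bulk tissue, fewer enterocytes and less RNA per enterocyte cannot be told apart. None of 16 brush border enzymes was called, 14 had a positive difference, and the median was 0.79, beside a median of -0.01 and 1.18% called over all 11014 genes, against which the counts of the lists below are to be read. LCT, the lactase of milk digestion, differed by 1.56 (limma adjusted p = 0.133), and ALPI, the intestinal alkaline phosphatase, by 1.84. Of 8 enterocyte markers none was called, 7 were positive, and their median was 0.87, with 6 of the 8 well above background on all 16 arrays. The mean level of these 8 markers was 2.41 to 4.28 in LWMS and -0.73 to 4.50 in MSMS. Fetus 632 had the lowest value, fetuses 609, 623 and 627 lay between 2.41 and 2.49, and the other 12 lay above 3.88, so that the low values were all in the 600s and 1 of the 4 was in LWMS. Within the 400s the order was the opposite, with a mean of 4.02 in LWMS and 4.32 in MSMS for enterocyte markers and of 2.44 and 2.63 for brush border enzymes. Within the 600s the means were 3.61 and 1.40 for enterocyte markers and 1.77 and -0.19 for brush border enzymes, and within the 800s 4.03 and 3.90, and 2.43 and 2.20. The part of enterocyte content in the differences of gut genes was not tested.

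Of 19 genes of lipid absorption, FABP1, the liver-type fatty acid-binding protein of enterocytes, was called. It was at 7.54, 7.98 and 8.63 in LWMS and at 4.09, 7.21 and 7.65 in MSMS, and the difference was 1.21 ± 0.32 (SE, limma adjusted p = 0.0404). Of its 4 probes 3 were called, 6 of 7 MSMS fetuses lay below the lowest LWMS fetus, and the lowest value was that of fetus 632. Without fetus 632 the FABP1 difference was 0.76 (adjusted p = 0.288), and with the series as a block it was not called (adjusted p = 0.189). The difference was -0.11 at day 90 and 0.03 in LW sows. The list had a median of 0.49, with 13 of 19 positive, including APOB, the core protein of chylomicrons, at 1.78 and not called.

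KHK, ketohexokinase, which phosphorylates fructose, was called among 12 genes of hexose use and gluconeogenesis (median 0.62, 10 positive). Its difference was 1.002 ± 0.25 (SE, limma adjusted p = 0.0249), with 0.03 at day 90 and -0.34 in LW sows. KHK differed by 0.38 in the 400s, 1.66 in the 600s and 0.74 in the 800s, and was not called without fetus 632 (0.80, adjusted p = 0.143), with the series as a block (adjusted p = 0.111) or in a fit of the 2 groups alone. Of 29 genes of oxidative phosphorylation, 2 were higher, UQCRC2 of complex III by 1.02 ± 0.24 and COX5A of complex IV by 0.93 ± 0.24 (SE, limma adjusted p = 0.0141 and 0.0302). The median of that list was 0.15, and 27 of 29 were positive. Both missed the threshold without fetus 632 (adjusted p = 0.0677 and 0.112), and both were called with the series as a block. Xenobiotic metabolism had 3 called genes of 24, the P450 genes CYP2C42, CYP2C49 and CYP3A46, and a median of 0.40. Ion and water transport had 1 of 20, AQP10, and a median of 0.27.

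Defence genes had medians below 0. LCN2, a siderophore-binding protein, was called among 22 genes of mucosal defence (median -0.33), at -1.73 ± 0.46 (SE, limma adjusted p = 0.0407). It was well above background on 1 of 9 LWMS and 5 of 7 MSMS arrays. Its 3 called probes hold 1 sequence, so that they are repeats of 1 measurement, and the call was kept under 3 of 12 alternatives and in 4 of 16 fits that each left out 1 fetus. IFIT2, an interferon-induced protein, was called among 33 interferon response genes (median -0.31, 24 negative), at -0.76 ± 0.20 (SE, limma adjusted p = 0.0337), with all 3 probes called. A probe of GBP7 from the same list, not the brightest of its gene, was called in the other direction (2.15, limma adjusted p = 1.83e-07). The GBP7 probe was also called with the series as a block (adjusted p = 0.00670). The IFIT2 difference was -0.18 in the 400s, -1.32 in the 600s and -0.42 in the 800s, and it was not called with the series as a block (adjusted p = 0.116). Among 22 heat shock genes HSPA5, a chaperone of the endoplasmic reticulum, was higher by 0.93 ± 0.25 (SE, limma adjusted p = 0.0400), and by 0.53 without fetus 632 (adjusted p = 0.275). The HSPA5 difference was 0.52 in the 400s, 1.44 in the 600s and 0.71 in the 800s, and the call was also lost with the series as a block (adjusted p = 0.219), median centring, no filter, array weights and in a fit of the 2 groups alone. Leaving out 1 fetus at a time, the call was kept in 11 of 16 fits for IFIT2, 7 for HSPA5, 9 for FABP1, 12 for KHK, 15 for UQCRC2, 10 for COX5A and 10 for CYP3A46.

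**Figure D4:**
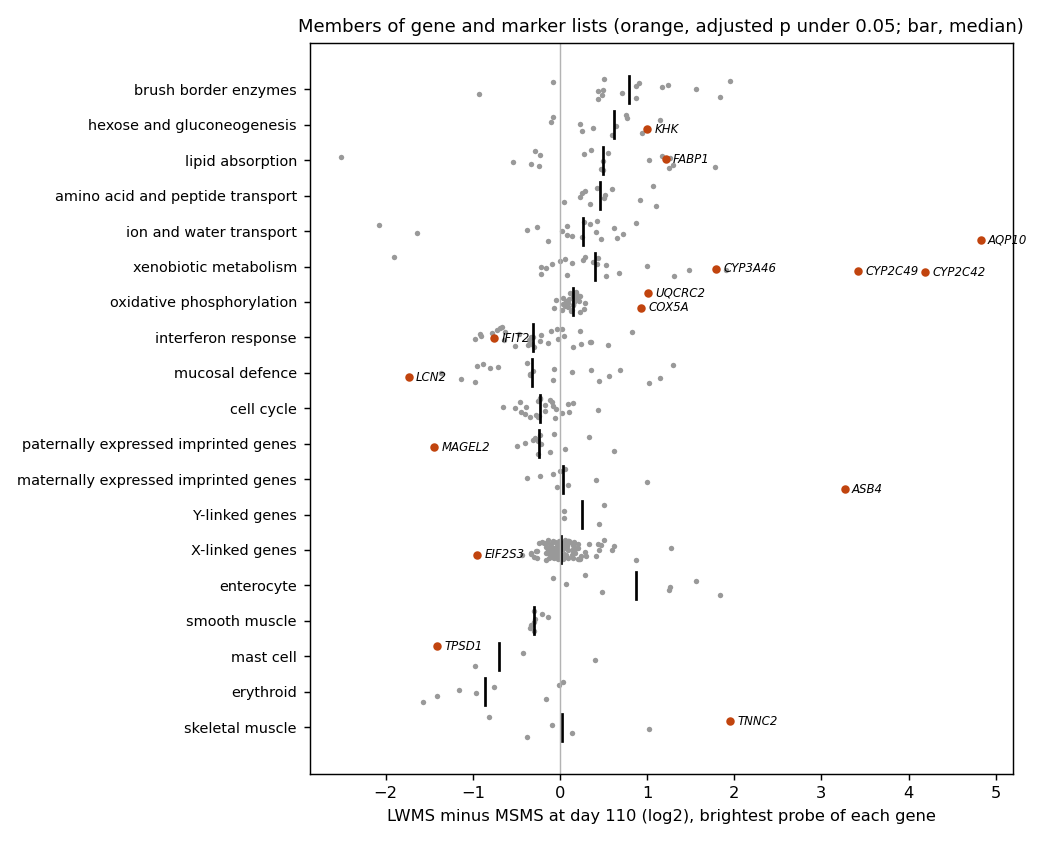
Differences between LWMS and MSMS at day 110 (horizontal axis, log2) of the members of gene and marker lists (vertical axis), by the brightest probe of each gene. Orange points were called, black bars are medians. Called genes are few in each list, and the medians run from -0.86 for erythroid to 0.87 for enterocyte markers.

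Of 31 gene lists, 12 held at least 1 called gene and 19 held none. The 19 covered 315 genes in brush border enzymes, microvillus structure, glycolysis, cholesterol synthesis, amino acid and peptide transport, arginine and citrulline synthesis, endocytosis and IgG uptake, tight junctions, steroid synthesis, glucocorticoid and thyroid response, IGF signalling, MHC, chemokines and cytokines, complement, plasma proteins, cell cycle, matrix, Y-linked genes and the genes that the study lists for the breed of the sow. Their medians ran from -0.23 for the cell cycle to 0.79 for brush border enzymes. Amino acid and peptide transporters were positive in 12 of 12, with a median of 0.46. Of 22 marker lists, 20 held no called gene, and the medians ran from -0.86 for erythroid to 0.87 for enterocyte markers. All 8 smooth muscle markers were negative, with a median of -0.30, and their mean level was 4.37 to 5.46 in LWMS and 4.69 to 5.67 in MSMS. Of 8 erythroid markers 7 were negative, including HBA1, alpha globin, at -0.96, and their mean level was -2.55 to -0.83 in LWMS and -1.78 to -0.23 in MSMS.

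Probes that change between day 90 and day 110 in fetuses of LW sows were examined to describe how the 2 groups lay along that change. The 1903 probes that rose with age there had a median difference of 0.14 between LWMS and MSMS, and 67.7% were higher in LWMS, against 43.6% of all probes. The 2170 probes that fell had a median of -0.14, and 31.0% were higher. Few were called, 2.1% and 1.29%, beside 1.09% of all probes. The age score of a fetus, the median of the former minus the median of the latter, was -0.50 to 0.37 in LWMS and -1.32 to 0.42 in MSMS. The lowest fetus was 609 in LWMS and 632 in MSMS, and the 6 fetuses of the 400s lay between 0.05 and 0.42. The part of this order in the differences between the groups was not tested.

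The study applied a mixed model with maternal and paternal genotype, age and their interactions, and reported no probe affected by paternal genotype. Here the sires were compared within MS sows at day 110 and without a sow effect. Why the outcomes differ was not tested. Of 19 tested genes that the study names in its text, KHK and FABP1 were called in this comparison. The spermine synthase gene SMS and SRPX2, both X-linked, differed by 0.20 and 0.33. The differences were 0.38 for PCK1 and 0.25 for G6PC, which act in glucose production, 0.39 for lactate dehydrogenase A (LDHA), -0.40 for the macrophage receptor CD163 and 0.11 for the chemokine CCL2. NR3C1, the glucocorticoid receptor, differed by 0.35 at its brightest probe, and 1 of its 5 probes was called at 1.29. DIO1, which activates thyroid hormone, differed by 0.95 (limma adjusted p = 0.775), and its level was 1.03 ± 0.77 in LWMS and 0.08 ± 3.14 in MSMS (SD, n = 9 and 7).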

How the data were processed

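RNA from the middle jejunum of 63 male fetuses was hybridised in 1 colour to Agilent pig arrays. As deposited by the authors, scanner files from Agilent Feature Extraction 10.10.1.1 (per the submitters' processing notes) held spot intensities, with a background-corrected signal for 61625 spots, of which 1319 were controls and 0 saturated. The authors also deposited log2 values of 39446 probes, which matched quantile-normalized log2 median intensities (lowest r = 0.999) and served as an alternative.

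The log2 of the background-corrected signal minus the 75th percentile of each array was used, outlier spots were left out, and spots of a probe were averaged. A probe was tested if well above background on 75% of the arrays of at least 1 of the 8 groups (40515 of 60305 probes, 2775 with a missing value). Group means of all 63 fetuses were fitted in limma 3.58.1 (R 4.3.3), with tests two-sided, and p-values adjusted by Benjamini-Hochberg and called under 0.05. Precision is limited by the number of arrays. The study fitted the sow as a random effect, but the sow of a fetus is not known here and could not be fitted, so p-values treat littermates as independent. Genes were named through RefSeq (Sscrofa11.1), the array files and the study's probe table, which gave 1 symbol to 28187 probes and 11014 tested genes. Named were the 15 highest and 15 lowest called genes by brightest probe, called members of lists or the brightest 2 where none was called, and genes in the study's text. Other list members were named after their values were seen, and the members and lists were chosen with earlier results of these data known. Sequences were copied from the array files, without genome coordinates. One called gene of the lists is not reported here.

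On simulated data for the day 110 comparison in MS sows over 40515 probes, 9 of 50 probes changed by 0.5 on the log2 scale were recovered, 29 of 50 by 1, 46 of 50 by 1.5 and 47 of 50 by 2, with 11 unchanged probes among 142 calls. The simulated noise was independent between fetuses and had the same spread in every group. It held no effect of litter or number series, so these rates may not hold for the real arrays. Alternatives covered the processed values, background, normalization, filter, slide, weights, fetuses in the fit and test. The series of fetus numbers as a block was added after seeing the data.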

Additional observations from a re-analysis of the deposited data

Results flagged for a closer look

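The values of named genes and array measures were examined for a single fetus far from the others of its group (272 tests), which chance alone gives in about 1 of 20. A total of 49 met this criterion, 22 of them in MSMS fetus 632 and 17 in LWMS fetus 609. All levels are log2.

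MSMS fetus 632 was the lowest of its group for the enterocyte genes ANPEP (2.76), FABP1 (4.09), SLC7A9 (-3.04) and CLDN2 (2.81), and for the goblet cell genes CLCA1 (3.78) and FCGBP (3.28). It was also lowest for the metabolic genes KHK (-0.619), OAT (2.31), LDHA (4.00), DIO1 (-6.42), CYP2C42 (-6.62) and CYP3A46 (-2.19), and for the chaperone HSPA5 (1.65). The same held for the plasma proteins TTR (-6.58) and ITIH4 (-0.29), for the immune genes C1QB (1.27), CFB (1.71) and CCL25 (-0.182), for EIF1AY (-0.0856) and for the age score (-1.32). This fetus was the highest for SALL3 (2.10) and SLC19A3 (-1.04).

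LWMS fetus 609 was the lowest of its group for the enterocyte genes ACE (4.73), APOA4 (5.35), FABP2 (4.97), EZR (4.95), SLC7A7 (3.56), CLDN2 (4.71) and AQP10 (2.47). It was also lowest for AMBP (0.382), ASS1 (3.55), CDKN1A (2.66), CIDEC (2.20), CYP2J34 (0.469), IGF2 (4.69), LAMP1 (6.27), SLC4A1 (3.21) and the age score (-0.498), and the highest for STMN2 (2.94), a gene of neurons.

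LWMS fetus 405 was the lowest for CYP2C34 (0.689), CYP2C42 (0.712) and CYP2C49 (-0.251). LWMS fetus 411 was the lowest for C7ORF31 (-2.44) and CCL2 (0.0026), and LWMS fetus 633 for CLASP1 (-3.66). The highest values were those of LWMS fetus 611 for the lymphocyte genes CD247 (1.31) and CD79B (-0.419), of MSMS fetus 623 for CLPS (4.58) and of MSMS fetus 627 for MYLK (7.32).

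The sire difference in MS sows minus that in LW sows at day 110 was called for 4 named genes (limma, Benjamini-Hochberg). It was 4.51 for MTFP1 (adjusted p = 1.37e-13), 4.09 for METTL7B (adjusted p = 0.000211), 6.14 for AQP10 (adjusted p = 0.00312) and 2.33 for CD38 (adjusted p = 0.0245).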

How the results depend on the processing

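The 443 calls of the day 110 comparison in MS sows became 725 with array weights and 262 with only the 2 groups in the fit. Leaving out 1 fetus at a time gave 313 to 546. Median centring gave 323 (292 higher, 31 lower) and quantile normalization 364 (321 higher, 43 lower). The block of fetus-number series gave 616, of which 309 were shared. At day 90 in MS sows, the 292 calls became 186 with normexp background correction and 638 with array weights. In LW sows the 536 calls became 146 with median centring, 311 with no filter, 945 with slide as a block, 3348 with array weights, 79 with only the groups compared and 938 without LW fetuses 484 and 469. The interaction of sire and age, with 0 calls, had 2 with the authors' values, 2 with median centring, 2 with the slide block, 6 with array weights, 1 with only the groups compared and 2 without fetuses 484 and 469. The interaction of sire and sow, with 80 calls, had 138 with the authors' values, 39 with median centring, 50 with no filter, 741 with array weights, 26 with only the groups compared and 125 without fetuses 484 and 469. The causes were not tested. No named gene changed direction with a call. With only the 2 groups in the fit, 25 named genes lost their call. Among them were FABP1, UQCRC2, COX5A, IFIT2, LCN2, MCT7, TPSD1, MLYCD and PTI. MTFP1, METTL7B, CYP2C42, C7ORF31, C1ORF186, CD38, MMRN2, SIN3A and TNNC2 were called under all 13 alternatives and all 16 omissions of a fetus. Littermates of the 2 groups could not be paired because the sow of a fetus is not known here, and slide and series were used as blocks instead.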
